A study of Mus musculus with 4 samples.

Results

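Type I interferon-stimulated genes (ISGs) are genes whose transcription is turned on when a cell senses interferon alpha or beta. The 42 ISGs described here were taken as a list of known interferon targets, and all 42 were found among the 24369 genes listed for each library. A gene was described when at least 2 libraries held an expected count of 10 or more, a rule that 14251 of the 24369 genes and all 42 ISGs passed. The expected count is the number of fragments that the quantification program RSEM assigned to a gene.

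The samples were CD4 T cells from the spleen of wild-type mice, stimulated through CD3 and CD28 with recombinant human IL-2 and without polarizing cytokines, and transduced on day 2 with a retrovirus that also encodes GFP. The empty vector group (EV RV, 2 libraries) received GFP alone and the Tox RV group (2 libraries) received GFP and TOX, a nuclear HMG-box protein known from T cell development and T cell exhaustion. Cells of both groups were restimulated on day 5, and the GFP+ cells were sorted for RNA-seq. The authors' methods describe this restimulation as 5 hours through CD3, and their results as through CD3 and CD28. The 2 libraries of a group stand for separate mice, and both groups carry a retroviral vector, so untransduced cells are not part of the comparison. TOX came from the vector and not from the gene's own promoter.

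Type I interferons bind the receptor formed by IFNAR1 and IFNAR2, which activates the kinases JAK1 and TYK2. These phosphorylate STAT2, which forms the complex ISGF3 with IRF9. ISGF3 binds the interferon-stimulated response element (ISRE) in target promoters, while interferon gamma acts mainly through a different element, GAS. Most of the proteins made from ISGs sense viral RNA, block viral replication or tune the response, and T cells keep a low level of many of them without added interferon.

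To show the element through which many of these genes are controlled, promoters were read from a RefSeq table for GRCm38.p6, which held 31 of the 42 ISGs. The ISRE core was searched as GAAANNGAAA on both strands in the 250 bases before the start of transcription. It was found in 10 of the 31 ISGs (32.3%), in 3.26% of the 10628 tested genes with a promoter in the table and in 3.46% of all 27025 symbols. The GAS core, searched as TTCNNNGAA, occurred in 5 of the 31 (16.1%), in 7.3% of the tested genes and in 8.13% of all symbols. Both cores were present in 2 of the 31. A match only describes these letters and is not a site shown to be bound. The stretches below are those of *Isg15*, *Ifit1* and *Bst2*, each with several cores, of *Stat2*, which encodes a subunit of ISGF3 itself, and of the near-identical genes *Oas1a* and *Oas1g*. They are written 5′ to 3′ on the strand of the gene, with the cores in capitals. Where a run of capitals is longer than 10 bases, cores overlap and share bases.
Isg15: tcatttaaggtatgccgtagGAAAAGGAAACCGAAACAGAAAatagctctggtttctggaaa
Ifit1: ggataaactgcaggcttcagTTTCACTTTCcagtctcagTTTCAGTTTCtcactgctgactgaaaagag
Bst2: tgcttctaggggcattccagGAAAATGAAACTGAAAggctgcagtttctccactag
Stat2: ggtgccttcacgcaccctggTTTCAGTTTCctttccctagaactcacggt
Oas1a: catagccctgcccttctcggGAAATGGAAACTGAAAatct
Oas1g: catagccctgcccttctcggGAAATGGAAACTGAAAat

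In GRCm38.p6 these stretches lie at chr4:156200855-156200916 on the minus strand (*Isg15*), chr19:34640765-34640833 on the plus strand (*Ifit1*), chr8:71537567-71537622 on the minus strand (*Bst2*), chr10:128270256-128270305 on the plus strand (*Stat2*), and chr5:120907526-120907565 and chr5:120887614-120887651 on the minus strand (*Oas1a* and *Oas1g*). All of them precede the annotated start of transcription. *Isg15* holds 3 overlapping cores between 57 and 78 bases before its start, and *Oas1a* holds 2 between 5 and 20 bases before its start. The 38 bases shown for *Oas1g* are the same letters as the first 38 shown for *Oas1a*.

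To check the labels, the level of *Tox* itself was read first. Levels are given as CPM, counts relative to library size after TMM scaling between libraries, and the values of a group are in the order replicate 1, replicate 2. *Tox* had 11.7 and 5.73 CPM in EV RV and 121 and 99.9 CPM in Tox RV cells (log2 fold change 3.68 ± 0.38 SE). Depth ranged from 46989997 to 74548723 expected counts per library, and the ribosomal RNA precursor *Rn45s* took between 7.14% and 24.8% of them, with the highest share in EV RV replicate 1. That library also stood apart from the other 3 on the first principal component, which held 64.3% of the variance. CD4 T cell markers summed to between 2391 and 3305 CPM over 10 genes. CD8 T cell markers summed to between 3.87 and 4.79 CPM, B cell markers to between 1.40 and 1.75 CPM with *Ms4a1* and *Pax5* at 0, and myeloid markers to between 4.74 and 6.43 CPM.

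Transcript levels of 41 of the 42 ISGs were lower on average in Tox RV than in EV RV cells, and only *Trim21*, which encodes a ubiquitin ligase that binds antibody inside cells, was higher. Of all 14143 genes tested, 49.6% had a log2 fold change below 0. The median log2 fold change of the ISGs was -0.46 (quartiles -0.67 and -0.26), a difference of -27.2%, against 0.00361 for all genes tested (quartiles -0.25 and 0.18). No ISG passed edgeR's quasi-likelihood test at an adjusted p of 0.05, and the adjusted p-values of the 42 ranged from 0.897 to 0.993. In that test 0 of 14143 genes passed (0%), *Tox* included, and the smallest adjusted p of any gene was 0.490. At an unadjusted p below 0.05, 15 ISGs were lower and 0 were higher, against 2.55% and 1.07% of all genes tested. DESeq2 called 0 ISGs after adjustment (0.156% of all genes, 22 in number) and found 13 ISGs lower at an unadjusted p below 0.05 (3.25% of all genes). The lowest adjusted p of an ISG in DESeq2 was 0.180, for *Oasl2*.

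**Figure D1:**
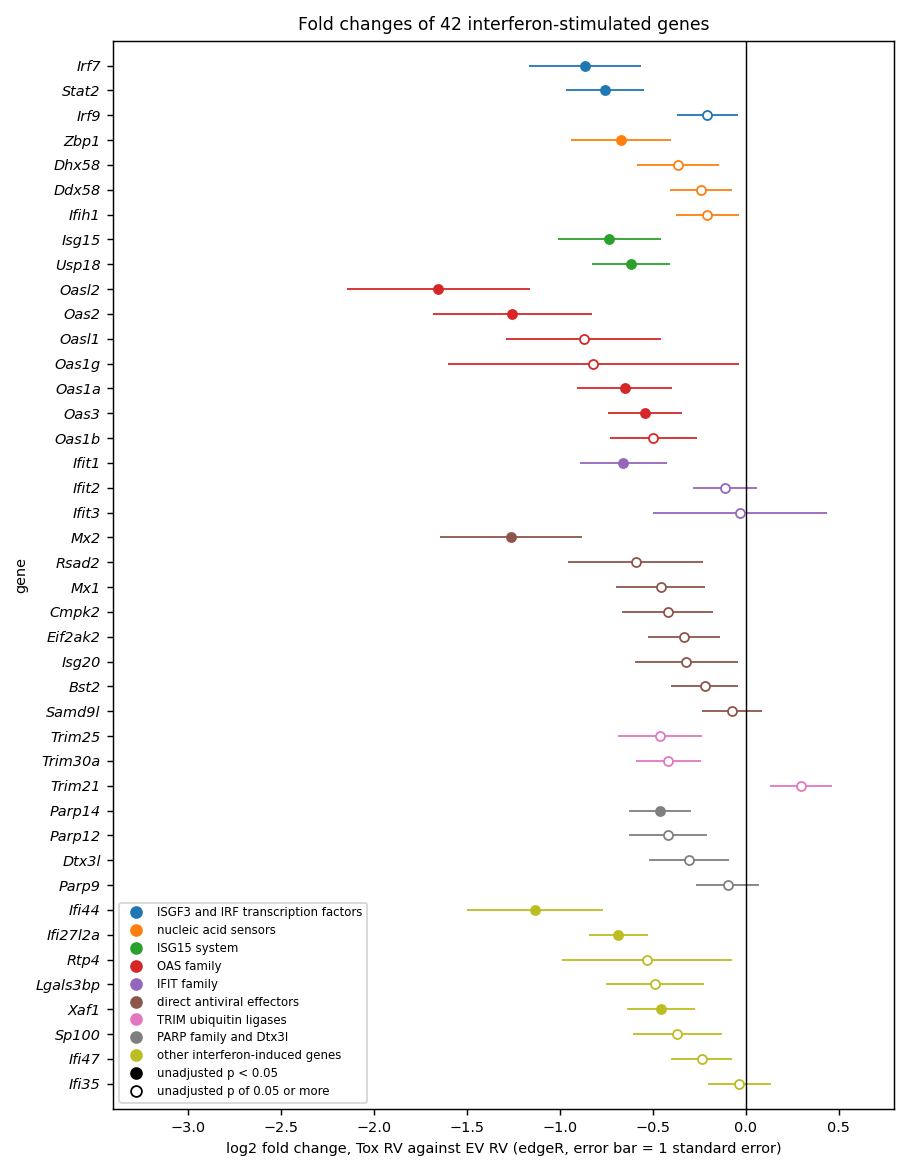
Log2 fold change of each of the 42 ISGs in Tox RV against EV RV cells from the edgeR fit, with 1 standard error, coloured by functional group and filled where the unadjusted p was below 0.05. All points but *Trim21* lie left of 0, from -1.65 for *Oasl2* to -0.03 for *Ifit3*, and 15 are filled.

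In 33 of the 42 ISGs each Tox RV library had less transcript than each EV RV library, a pattern seen in 17.4% of all genes tested. The opposite order was seen for 1 ISG, *Trim21*, and for 18.6% of all genes. In the other 8 (*Ifit2*, *Ifit3*, *Isg20*, *Oas1g*, *Rtp4*, *Ifi35*, *Parp9* and *Sp100*) the groups overlapped. Some of the 33 were ordered only by a small margin. *Dtx3l*, for example, had 185.2 CPM in EV RV replicate 2 and 184.7 CPM in Tox RV replicate 1. The RNA is that of whole sorted populations, so fewer cells with a transcript and less transcript per cell cannot be told apart.

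The transcription factors that carry the interferon signal were all lower in Tox RV cells without overlap of the groups (17.4% of all genes tested). *Stat2*, which brings the activation domain to ISGF3, had 95.8 and 69.4 CPM in EV RV and 49.5 and 48.4 CPM in Tox RV cells. For *Stat2* the log2 fold change came to -0.76 ± 0.21 SE, with an unadjusted edgeR p of 0.0124. The Tox RV libraries of *Stat2* lay within 2 CPM of each other while the EV RV libraries were farther apart. *Irf7*, the factor that amplifies interferon production, had 29.8 and 19.9 CPM in EV RV and 10.8 and 16.4 CPM in Tox RV cells (log2 fold change -0.86 ± 0.30 SE). *Irf9*, the DNA-binding subunit of ISGF3, differed least of the 3, with 97.8 and 89.2 CPM in EV RV and 77.6 and 84.6 CPM in Tox RV cells (-0.21 ± 0.17 SE). Exons of *Irf9* overlap *Rnf31* on the same strand and those of *Irf7* overlap *Phrf1* on the other strand, and use of strand in counting was not stated, so the counts of both are uncertain.

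The OAS family, whose enzymes bind double-stranded RNA and make 2′-5′ oligoadenylate, the activator of the nuclease RNase L, was lower in Tox RV cells in all 7 members. In 6 of them the groups did not overlap, where 17.4% of all genes tested were lower without overlap. At an unadjusted edgeR p below 0.05, 4 were lower (2.55% of all genes tested). The median log2 fold change was -0.82. That median is the value of the sparsely counted *Oas1g*, and it was -0.44 without EV RV replicate 1. *Oasl2*, an OAS-like gene, had 6.33 and 2.76 CPM in EV RV and 1.11 and 1.77 CPM in Tox RV cells. The resulting log2 fold change of -1.65 ± 0.49 SE was the most negative of the 42 ISGs. *Oas2* had 3.98 and 1.94 CPM in EV RV and 1.15 and 1.31 CPM in Tox RV cells (-1.26 ± 0.43 SE). In both genes EV RV replicate 1 was highest by a wide margin, and EV RV replicate 2 still lay above both Tox RV libraries.

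*Oas3*, the most abundant family member per length, had 101 and 75.8 CPM in EV RV and 61.8 and 59.8 CPM in Tox RV cells (-0.54 ± 0.20 SE). *Oas1a* had 8.30 and 6.23 CPM in EV RV and 4.27 and 4.97 CPM in Tox RV cells (-0.65 ± 0.26 SE). *Oasl1*, which restrains translation of *Irf7* mRNA, had 1.66 and 1.06 CPM in EV RV and 0.632 and 0.848 CPM in Tox RV cells (-0.87 ± 0.42 SE). These 3 genes did not overlap between groups. *Oas1g* rested on 23 and 17 counts in EV RV and 20 and 5 counts in Tox RV cells (0.545, 0.223, 0.316 and 0.0964 CPM), and its groups overlapped (-0.82 ± 0.78 SE). *Oas1a* and *Oas1g* transcripts are 97.6% identical over 1861 bases, so the division of reads between them is uncertain. *Oas1b* completed the family with a log2 fold change of -0.50 ± 0.24 SE. The GENCODE annotation types *Oas1b* as a polymorphic pseudogene, a gene intact in only some strains, so its transcript need not stand for an enzyme.

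*Isg15* encodes a ubiquitin-like protein that is attached to other proteins, and *Usp18* the protease that removes it and also blocks IFNAR2 signalling. *Isg15* had 8.94 and 5.96 CPM in EV RV and 4.30 and 4.64 CPM in Tox RV cells (-0.73 ± 0.28 SE). *Usp18* had 20.6 and 27.3 CPM in EV RV and 14.8 and 16.4 CPM in Tox RV cells (-0.62 ± 0.21 SE). Neither gene overlapped between groups, and they differed in which EV RV library was higher. Both had an unadjusted edgeR p below 0.05, at 0.0404 and 0.0284.

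The IFIT genes encode proteins that bind viral RNA at its 5′ end. The 3 members differed in whether the groups overlapped. *Ifit1* had 9.98 and 7.67 CPM in EV RV and 5.74 and 5.43 CPM in Tox RV cells (-0.66 ± 0.24 SE). In its neighbours on chromosome 19, *Ifit2* and *Ifit3*, the groups overlapped, with log2 fold changes of -0.11 ± 0.17 and -0.03 ± 0.47 SE. *Ifit3* is 97.8% identical over 1700 bases to *Ifit3b*, which was not analysed here.

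Among the sensors of foreign nucleic acid, 4 of 4 were lower without overlap (17.4% of all genes tested). *Zbp1*, a sensor of Z-form nucleic acid that can start necroptosis, had 76.8 and 46.7 CPM in EV RV and 40.9 and 36.7 CPM in Tox RV cells (-0.67 ± 0.27 SE). When EV RV replicate 1 was left out, *Zbp1* differed by -0.27. The RNA helicases *Ifih1* (MDA5), *Ddx58* (RIG-I) and *Dhx58* (LGP2) had log2 fold changes of -0.21, -0.24 and -0.36, and none reached an unadjusted p of 0.05.

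Of the 8 direct antiviral effectors, 7 were lower without overlap (17.4% of all genes tested). The median log2 fold change of the 8 was -0.38 (-0.18 without EV RV replicate 1, -0.61 without EV RV replicate 2). *Mx2*, of the dynamin-like antiviral GTPase family, is also typed as a polymorphic pseudogene, so its transcript need not stand for a protein. *Mx2* had 5.45 and 2.89 CPM in EV RV and 1.63 and 1.83 CPM in Tox RV cells (-1.26 ± 0.38 SE). Its neighbour *Mx1* had -0.46 ± 0.24 SE. Whether *Mx1* or *Mx2* is intact in the mouse strain used was not examined. The 2 transcripts are 95.3% identical over 843 bases. *Bst2*, which tethers budding virions to the cell surface, had 70.1 and 61.2 CPM in EV RV and 60.7 and 52.0 CPM in Tox RV cells (-0.22 ± 0.18 SE). The closest libraries of *Bst2* were less than 1 CPM apart, and its groups were ordered without overlap only by that margin. *Eif2ak2*, the kinase PKR, had -0.33 ± 0.20 SE, *Rsad2*, which encodes viperin, had -0.59 ± 0.36 SE, and *Samd9l* differed by -0.07 ± 0.16 SE.

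*Ifi27l2a*, a small hydrophobic protein gene, gave the smallest unadjusted p of the 42 ISGs, 0.00535 in edgeR's test. It had 156 and 157 CPM in EV RV and 95.8 and 99.1 CPM in Tox RV cells (-0.68 ± 0.16 SE). *Ifi44* had 6.45 and 6.36 CPM in EV RV and 1.98 and 3.87 CPM in Tox RV cells (-1.13 ± 0.37 SE). *Xaf1*, an antagonist of the apoptosis inhibitor XIAP, had 27.4 and 23.4 CPM in EV RV and 17.9 and 19.2 CPM in Tox RV cells (-0.46 ± 0.18 SE). In these 3 genes the difference between groups exceeded that between the replicates of either group.

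*Ifi47*, an immunity-related GTPase, had 388 and 380 CPM in EV RV and 308 and 344 CPM in Tox RV cells (-0.24 ± 0.16 SE), and its exons overlap *Olfr56* on the same strand. *Lgals3bp*, a secreted galectin-binding glycoprotein, had 176 and 108 CPM in EV RV and 105 and 96.5 CPM in Tox RV cells (-0.49 ± 0.26 SE). Only EV RV replicate 1 of *Lgals3bp* stood well above the other libraries.

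*Parp14*, an ADP-ribosyltransferase, had 292 and 257 CPM in EV RV and 202 and 197 CPM in Tox RV cells (-0.46 ± 0.17 SE). The other PARP genes and *Dtx3l*, whose protein works in a pair with PARP9, had log2 fold changes between -0.42 and -0.10. Of the TRIM ubiquitin ligases, *Trim25*, which ubiquitinates RIG-I, had -0.46 ± 0.23 SE and *Trim30a* -0.42 ± 0.17 SE. *Trim21* had 42.8 and 43.1 CPM in EV RV and 55.2 and 50.3 CPM in Tox RV cells (0.30 ± 0.17 SE). The remaining genes *Cmpk2*, *Rtp4*, *Isg20*, *Sp100*, *Parp12* and *Ifi35* lay between -0.53 and -0.03.

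**Figure D2:**
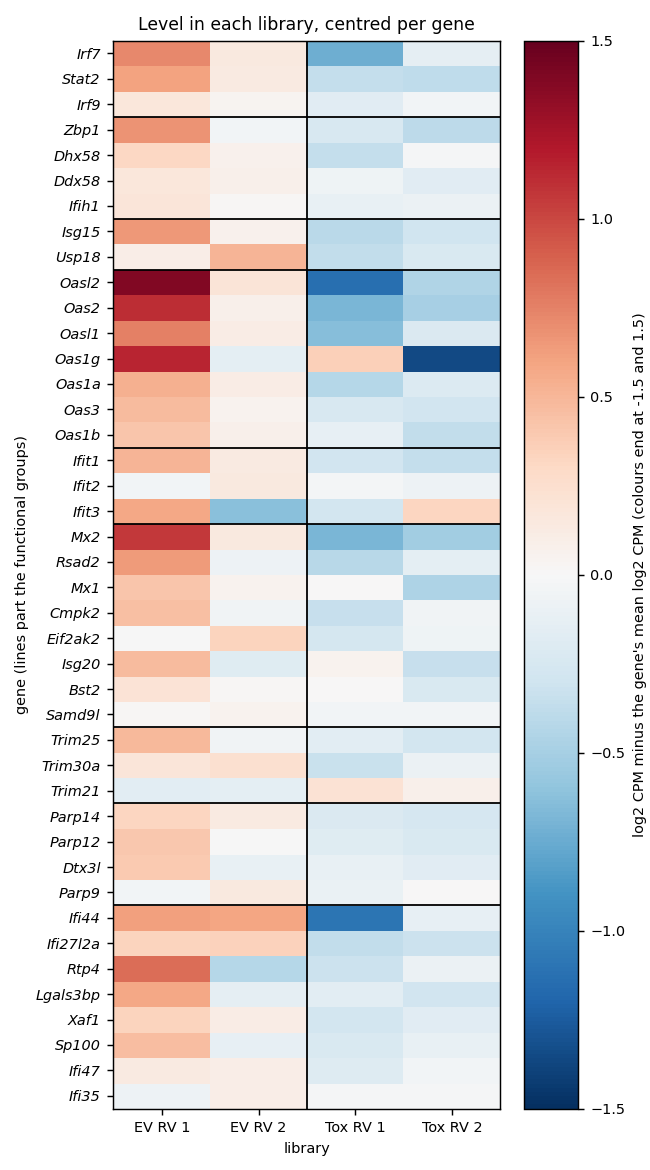
Level of each ISG in each of the 4 libraries, as log2 CPM minus the mean log2 CPM of that gene, with genes grouped by function. The EV RV 1 column is red in most rows and the 2 Tox RV columns are mostly blue, while EV RV 2 lies between them in many rows. EV RV replicate 1 was the highest library in 33 of the 42 genes.

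The ISGs also differed between the 2 EV RV libraries. EV RV replicate 1 exceeded EV RV replicate 2 in 33 of the 42 ISGs, with a median log2 ratio of 0.40 against 0.00537 over all genes tested. Between the Tox RV libraries, replicate 1 was higher in 18 of the 42, with a median log2 ratio of -0.08. EV RV replicate 1 was the highest of the 4 libraries for 33 ISGs and EV RV replicate 2 for 8, whereas Tox RV replicate 1 was the lowest for 21 and Tox RV replicate 2 for 17. Both Tox RV libraries lay below EV RV replicate 1 in 38 ISGs, as in 41.7% of all genes tested. They lay below EV RV replicate 2 in 36 ISGs, as in 33.5% of all genes tested. EV RV replicate 1 is also the library with the highest share of *Rn45s*. With *Rn45s* counts left out before scaling, the ISG median was -0.465 and 41 ISGs were lower (50.5% of all genes tested). In that setting 33 were lower without overlap (18.3% of all genes tested). Beyond that, the part of this library's difference in these results was not tested.

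**Figure D3:**
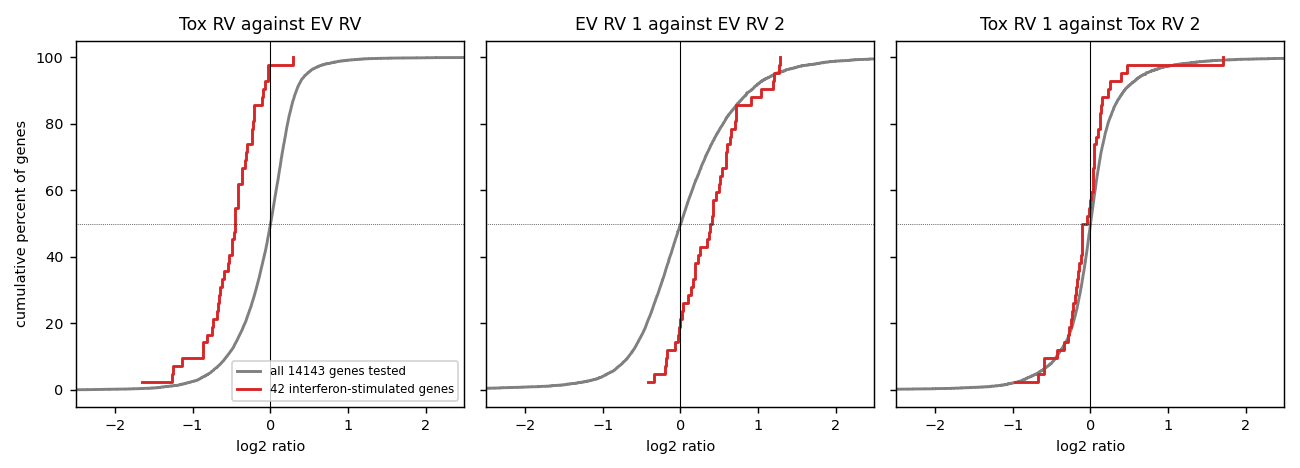
Cumulative percent of genes by log2 ratio for Tox RV against EV RV, EV RV replicate 1 against 2 and Tox RV replicate 1 against 2, for all 14143 genes tested (grey) and the 42 ISGs (red). The ISG curve lies left of the grey curve in the first panel (medians -0.46 and 0.00361), right of it in the second (0.40 and 0.00537) and near it in the third (-0.08 and 0.00255).

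Leaving out each library in turn gave the ISGs a median log2 fold change of -0.24 without EV RV replicate 1, -0.63 without EV RV replicate 2, -0.48 without Tox RV replicate 1 and -0.44 without Tox RV replicate 2. Fits with 1 library in a group take that library to vary as much as the other group's libraries do. Shares of all genes at an unadjusted p below 0.05 are not given for these fits, so counts at that threshold have no background beside them. In all 4 of these fits 36 of the 42 ISGs had a log2 fold change below 0, as did 23.7% of all genes tested. Without EV RV replicate 1, *Ifit3*, *Isg20*, *Rtp4* and *Trim21* were above 0 and 0 ISGs passed the adjusted threshold, with 10 at an unadjusted p below 0.05. Without EV RV replicate 2, edgeR called 8 ISGs at an adjusted p below 0.05, the lowest being 0.0331. These were *Mx2*, *Oas2*, *Oas3*, *Oasl2*, *Stat2*, *Zbp1*, *Ifi27l2a* and *Lgals3bp*, all lower in Tox RV cells, in a fit that called 600 genes in all. When EV RV replicate 1 was left out, 23 ISGs came nearer to 0 by more than 1.5 times, among them *Isg15* (-0.42), *Irf7* (-0.55), *Mx2* (-0.75), *Oas2* (-0.67) and *Oas3* (-0.33). *Usp18* (-0.39) came nearer to 0 to that extent without EV RV replicate 2, and *Ifi44* (-0.73) without Tox RV replicate 1. Leaving out Tox RV replicate 2 did so for *Isg20*, *Mx1*, *Oas1g* and *Bst2*. *Ifi27l2a* ranged only from -0.71 to -0.67 over these fits, while *Oasl2* ranged from -2.14 to -0.95 and *Lgals3bp* from -0.80 to -0.10.

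**Figure D4:**
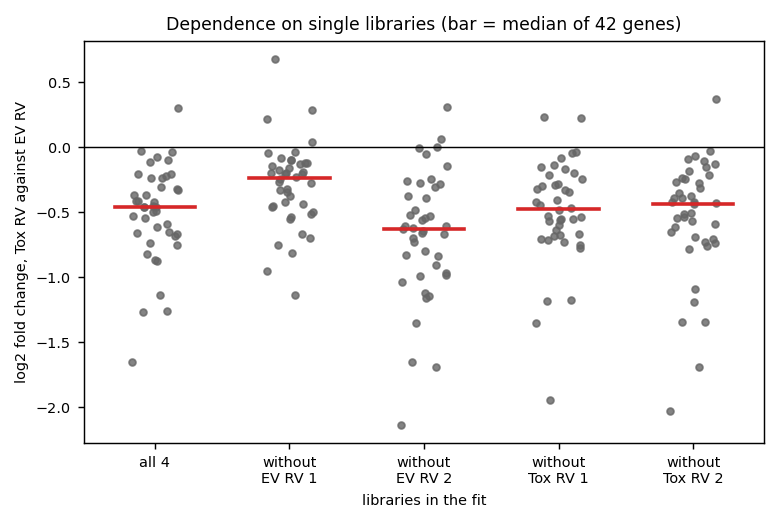
Log2 fold change of the 42 ISGs (points) and their median (red bar) in the fit of all 4 libraries and in the 4 fits that each leave out 1 library. The median is -0.46 with all libraries and ranges from -0.63 without EV RV replicate 2 to -0.24 without EV RV replicate 1, below 0 in every fit.

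Levels per length, as TPM (transcript abundance relative to all transcripts, mean of the 4 libraries), spanned from 0.247 for *Oas1g* to 633 for *Ifi27l2a*. *Ifi27l2a* was followed by *Ifi47* at 351, *Bst2* at 135, *Lgals3bp* at 96.0 and *Zbp1* at 92.8 TPM. *Lgals3bp* and *Zbp1* were not separated beyond the spread of their libraries. At the lower end, *Oasl1*, *Oas2*, *Rsad2* and *Oas1g* had a mean below 1 TPM, and the first 3 of these lay within 0.1 TPM of each other (0.853 to 0.925). Of the 42 ISGs, 27 had a mean of 10 TPM or more, with a median log2 fold change of -0.37. The 15 ISGs below 10 TPM had a median of -0.65, and in all 15 EV RV replicate 1 exceeded EV RV replicate 2. The limit of 10 TPM was chosen after the values were seen.

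**Figure D5:**
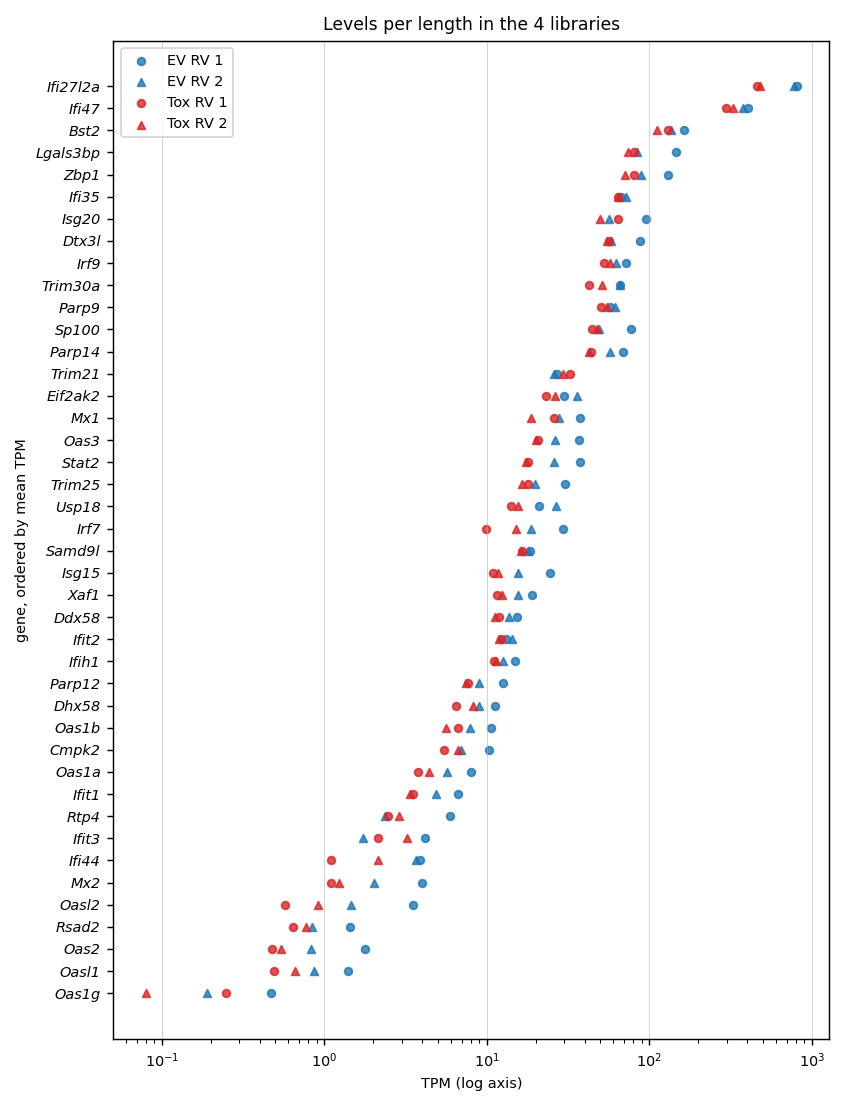
TPM of each ISG in the 4 libraries on a log axis, ordered by the mean (EV RV blue, Tox RV red; circles replicate 1, triangles replicate 2). The range runs from 0.247 TPM for *Oas1g* to 633 TPM for *Ifi27l2a*, and the red symbols lie left of the blue ones in most rows.

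Several ISGs are neighbours in the genome. With positions from GENCODE for GRCm38, 17 of the 42 ISGs fell into 6 groups in which neighbouring genes lie within 100000 bases. The largest spans chr5:120730333-120907521 and holds *Oas2*, *Oas3*, *Oas1b*, *Oas1g* and *Oas1a*, whose log2 fold changes ran from -1.26 to -0.50 and of which 4 did not overlap between groups. *Oasl2* and *Oasl1* lie together at chr5:114896936-114937915, with -1.65 and -0.87. *Mx1* and *Mx2* (chr16:97447035-97560900) and *Rsad2* and *Cmpk2* (chr12:26442746-26479837) were lower without overlap in both genes of each pair. For *Rsad2* and *Cmpk2* the margin was small, with 1.918 and 13.36 CPM in EV RV replicate 2 and 1.831 and 13.26 CPM in Tox RV replicate 2. Over all genes tested, 17.4% were lower without overlap. The differences within a group were unequal in *Parp14*, *Dtx3l* and *Parp9* (chr16:35832874-35972605, from -0.46 to -0.10) and in *Ifit2*, *Ifit3* and *Ifit1* (chr19:34550694-34650009, from -0.66 to -0.03). Exons of *Dtx3l* and *Parp9* overlap on opposite strands.

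The 10 ISGs with an ISRE core in the 250 bases before the start had a median log2 fold change of -0.62 (range -0.82 to -0.03), and 8 of them were lower without overlap. The 21 ISGs whose window held no such letters had a median of -0.33 (range -1.65 to 0.30), and 16 were lower without overlap. The 11 ISGs with no promoter to read had a median of -0.53 (range -1.26 to -0.10), and 9 were lower without overlap. Over all genes tested, 17.4% were lower without overlap. *Oasl2*, with the most negative fold change, was among the 21. The differences between these sets were not tested, and which of the 11 hold a core is not known here.

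The other parts of the interferon pathway were read from lists of known members. Of 18 type I interferon genes, only *Ifnk* and *Ifnz* had enough counts to be tested. *Ifnb1* had 4 counts in EV RV replicate 2 and 0 in the other libraries, and *Ifna4* had 4 counts in EV RV replicate 1 and 0 elsewhere. *Ifna2*, *Ifna13*, *Ifna15* and *Ifnab* had at most 2 counts in any library, and the remaining genes had 0, where a count of 0 allows up to 3 counts per library. Transcripts for interferon alpha and beta were therefore at or near the limit of detection in both groups at this depth. *Ifnk* had 32 and 5 counts in EV RV and 12 and 5 counts in Tox RV cells, and *Ifnz* had 48 and 51 counts in EV RV and 27 and 27 counts in Tox RV cells.

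*Ifng*, which encodes type II interferon and shares many target genes with type I interferon, had 10.9 and 107 CPM in EV RV and 96.0 and 47.4 CPM in Tox RV cells. The EV RV libraries lay on either side of both Tox RV libraries (log2 fold change 0.29 ± 0.94 SE). *Ifng* was thus lowest in EV RV replicate 1, the library in which most ISGs were highest. *Ifnl2* had 2 counts in EV RV replicate 2 and 0 in the others.

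Of 9 tested receptor and JAK-STAT genes, 8 were lower on average in Tox RV cells (49.6% of all genes tested), 2 of them at an unadjusted p below 0.05 (2.55% of all genes tested), and the median log2 fold change was -0.23. The receptor subunits *Ifnar1* (407 and 240 CPM in EV RV, 252 and 238 CPM in Tox RV cells) and *Ifnar2* (40.8 and 33.2 CPM, 27.5 and 36.2 CPM) overlapped between groups. The kinase genes *Jak1* (-0.23 ± 0.35 SE) and *Tyk2* (-0.14 ± 0.18 SE) also overlapped. The receptor for interferon gamma had both of its subunits lower without overlap (17.4% of all genes tested). *Ifngr1* had 336 and 201 CPM in EV RV and 174 and 162 CPM in Tox RV cells (-0.68 ± 0.27 SE). *Ifngr2* had 27.1 ± 1.01 CPM in EV RV and 18.6 ± 1.91 CPM in Tox RV cells (mean and SD, n = 2), with a log2 fold change of -0.54 ± 0.18 SE.

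Of 14 tested genes of the pathway that induces interferon, 9 were lower on average (49.6% of all genes tested). At an unadjusted edgeR p below 0.05 there were 0 (2.55% of all genes tested lower and 1.07% higher). *Irf3*, the factor that starts interferon beta transcription, had 54.4 and 43.5 CPM in EV RV and 58.9 and 55.7 CPM in Tox RV cells (0.23 ± 0.19 SE). Of 15 negative regulators, 8 were lower (49.6% of all genes tested) and 7 higher. *Ptpn6*, the phosphatase SHP-1, had 218 and 182 CPM in EV RV and 335 and 274 CPM in Tox RV cells (0.60 ± 0.19 SE). *Adar*, the RNA editor that prevents sensing of the cell's own RNA, had 208 and 166 CPM in EV RV and 130 and 136 CPM in Tox RV cells (-0.49 ± 0.18 SE). *Ptpn6* and *Adar* were the members of this list with an unadjusted edgeR p below 0.05, at 0.0222 and 0.0383. Over all genes tested, 1.07% were higher and 2.55% lower at that threshold. *Socs1*, a feedback inhibitor of JAK kinases, overlapped between groups (-0.18 ± 0.23 SE).

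A list of 78 further interferon-induced genes, of which 77 were tested, had a median log2 fold change of -0.23. Of these, 56 were lower on average (49.6% of all genes tested) and 21 higher. Without overlap, 27 were lower and 4 higher (17.4% and 18.6% of all genes tested). At an unadjusted p below 0.05, 9 were lower and 0 higher (2.55% and 1.07% of all genes tested), and 0 passed after adjustment. The 9 were *Helz2*, *Phf11d*, *Slfn5*, *Pml*, *Ube2l6*, *Gbp2*, *Igtp*, *Ly6c2* and *Irf8*. *Pml*, the organizer of PML nuclear bodies, had 122 and 83.7 CPM in EV RV and 45.4 and 60.5 CPM in Tox RV cells (-0.96 ± 0.26 SE). *Ube2l6*, the conjugating enzyme for ISG15, had 33.1 and 29.6 CPM in EV RV and 19.5 and 23.3 CPM in Tox RV cells (-0.55 ± 0.19 SE), a difference of the same sign as that of *Isg15*. *Ly6c2*, a surface marker of T cell and monocyte subsets, had 30.1 and 30.7 CPM in EV RV and 17.1 and 18.4 CPM in Tox RV cells (-0.78 ± 0.17 SE). *Irf8*, a lymphoid and myeloid transcription factor, had 312 and 347 CPM in EV RV and 238 and 240 CPM in Tox RV cells (-0.46 ± 0.16 SE). *Irf1* was also lower without overlap, with -0.16 ± 0.16 SE. The near copies *Oas1c* (-0.33 ± 0.28 SE) and *Trim30d* (-0.24 ± 0.21 SE) overlapped between groups.

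Markers of other cells that express ISGs strongly were read beside these results. Plasmacytoid dendritic cell markers other than *Bst2* summed to 25.7 and 23.3 CPM in EV RV and 31.2 and 27.2 CPM in Tox RV cells over 8 genes. *Klk1* and *Ly6d* were at 3 counts or fewer in all libraries. *Lair1*, *Il3ra* and *Cox6a2* were higher on average in Tox RV cells, while *Siglech*, *Ccr9* and *Tcf4* were lower. *Siglech* had only 12 and 5 counts in EV RV and 2 and 6 counts in Tox RV cells. NK cell markers summed to 141 and 156 CPM in EV RV and 129 and 94.9 CPM in Tox RV cells over 8 genes, with *Ncr1* and *Klra8* at 0. The NK list was thus lower in Tox RV cells, as the ISGs were, and its part in the result was not tested. Most of that sum was *Eomes*, which activated T cells also express (79.8 and 109 CPM in EV RV, 72.2 and 71.2 CPM in Tox RV cells). Without *Eomes*, a sum chosen after the values were seen, the other 7 NK cell genes came to 61.3 and 47.6 CPM in EV RV and 56.9 and 23.8 CPM in Tox RV cells, and the groups overlapped. The cultures were started from isolated naive CD4 T cells, and the share of other cells left in the sorted samples was not tested.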

How the data were processed

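RNA-seq libraries of sorted GFP+ CD4 T cells were compared between EV RV and Tox RV, with 2 libraries per group. Per the labels and the methods, the authors used FastQC for read quality, Bowtie for alignment to mm10 and RSEM for quantification of each library on its own. The submitters' processing notes also name Bowtie2 and DESeq2, and versions and use of strand are not given in the sources used here. The deposited expected counts are not normalized, and the deposited TPM values are transcript abundances per length, relative to all transcripts of a library. RSEM divides reads between near-identical genes by a model. One deposited table of all samples was not used.

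Expected counts were rounded and fitted in R 4.3.3 with edgeR 4.0.16 (filterByExpr with a minimum count of 10, TMM scaling, glmQLFit and glmQLFTest without a block, Benjamini-Hochberg adjustment over all 14143 genes tested). The common biological coefficient of variation was 0.232. The methods name DESeq2 for this comparison, which was run as an alternative (1.42.0), as was limma 3.58.1 on log2(TPM + 1) and log2(TPM + 0.1). The fits were tested on simulated data. Near copies were searched with blastn 2.17.0 (at least 95% identity over 300 bases or more). The ISGs, the lists and the functional groups were chosen with earlier results of these data known, and these results are no independent support.

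Values in every library were given for ISGs with an unadjusted p below 0.05, the 10 with the largest absolute fold change, the 5 with the highest TPM, *Stat2*, *Irf9*, *Irf7*, *Isg15* and *Usp18*. Of the pathway lists, ligands with counts, receptors, JAK-STAT genes, IRF genes, *Socs1*, genes with an unadjusted p below 0.05 and near copies were named. Some genes of these lists are not reported here. *Trim21*, as the single ISG above 0, and the other genes outside this rule were chosen after their values were seen.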

Additional observations from a re-analysis of the deposited data

How the results depend on the processing

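With 2 libraries per group, single ISGs could not be separated from the spread between replicates after adjustment. A log2 fold change below 0 held for 36 to 41 of the 42 ISGs under every setting run. The share of all genes tested below 0 also moved with the setting. It was 35.6% with library totals, where 36 ISGs were lower, and 60% with limma on log2(TPM + 1), where 41 were lower. The number of ISGs called at an adjusted p below 0.05 was 0 in each setting with all 4 libraries, ranged from 0 to 8 when 1 library was left out, and was 15 with the unadjusted p. Over all genes, 22 were called by DESeq2, 22 without a low-count filter, 16 with the replicate block, and 1 to 600 when 1 library was left out. ISGs lower at an unadjusted p below 0.05 numbered 7 with library totals in place of TMM and 2 to 26 when 1 library was left out. Library totals moved the median of all genes to 0.12, and there *Ifit2*, *Ifit3*, *Ifi35*, *Parp9*, *Samd9l* and *Trim21* were above 0 and 27 ISGs were lower without overlap (11.5% of all genes tested). The ISG median was -0.33 with library totals, ranged from -0.63 to -0.24 when 1 library was left out, and lay between -0.52 and -0.43 in the other settings. Summing near copies gave -0.46. No single ISG given in full changed sign.

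The labels give both groups the replicate numbers 1 and 2 but do not say that a number marks 1 mouse. Same-numbered libraries deviated together over all genes (correlation 0.377) and not over the ISGs (-0.07), and 2 pairs cannot settle whether the numbers pair the samples. With the replicate block, 40 ISGs were lower (48.5% of all genes tested) and the median was -0.44. In that setting 0 ISGs passed edgeR's test after adjustment (lowest adjusted p 0.203). At an unadjusted p below 0.05, 20 were lower, and the share of all genes at that threshold is not given for this setting. The causes of these differences between settings were not tested.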
